A study of Saccharomyces cerevisiae and Schizosaccharomyces pombe with 10 samples.

Results

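The long non-coding RNA genes of the fission yeast Schizosaccharomyces pombe were taken as all genes of biotype lncRNA in the RefSeq annotation of assembly ASM294v3, apart from srp7 and mrp1, the RNA parts of the signal recognition particle and of RNase MRP. A read was theirs when such a gene held the largest overlap of its aligned bases on the same strand, and when it touched no snoRNA, tRNA or snRNA gene on that strand. By this rule 1187 of 16126 alignments (7.36%, 95% Wilson interval 6.97 to 7.77) fell to 70 of 7131 annotated genes, which is 0.982% of them. Of these genes SPNCRNA.625 and SPNCRNA.201 had 1 read each, with 36.7% and 48.1% of its aligned bases in the gene. With most of a read's aligned bases required in the gene, 68 genes remained. srp7 with 118 reads and mrp1 with 28 stayed outside.

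The series read nascent RNA, the RNA that transcribing polymerases still hold on chromatin, molecule by molecule with Pacific Biosciences long reads. Fission yeast was represented by 1 sample of strain L972, wild type and of mating type h-, grown in YES rich medium with glucose and harvested in exponential growth. RNA 3' ends were ligated to an adaptor before cDNA synthesis and a low number of PCR cycles, so the end of a read marks where an RNA molecule ended. The other samples are budding yeast and were not used here. The read names show 4 sequencing movies of this library with 2 dates, 2 movies each, which are called the earlier and the later movies. They held 7305 and 8821 alignments, in which lncRNA genes had 564 reads (7.72%, 7.13 to 8.36) and 623 reads (7.06%, 6.55 to 7.62). The movies come from 1 sample and are not replicates, so no spread between replicates could be given and no test was run. Intervals cover counting error only, and PCR copies are not independent molecules.

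Long non-coding RNAs are transcripts without a protein product that RNA polymerase II makes from intergenic stretches, from divergent promoters and from the strand opposite to coding genes. In fission yeast many are short-lived because the nuclear exosome removes them, and some act in cis: transcription of prt or prt2 across a phosphate gene represses that gene while phosphate is plentiful. Others work as stable RNAs, such as ter1, the RNA template of telomerase. Small nucleolar RNAs (snoRNAs), which guide the modification of ribosomal RNA, are finished at a fixed 3' end. Box C/D snoRNAs carry a C box near the 5' end and a D box near the 3' end, while box H/ACA snoRNAs end a few bases after an ACA.

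Nearly all reads came from a handful of places. The 10 genes with most reads held 1121 of the 1187 reads (94.4%, 93.0 to 95.6), and the other 60 genes shared 66 reads. Of these 60 genes 55 had 1 read, 4 had 2 and 1 had 3, and 0 genes had 4 to 7. SPNCRNA.942, the ninth, had 57 reads, SPNCRNA.1490, the last of the 10, had 8, and nc-pho1, the next gene, had 3, so the widest step in read number near this limit lies within the 10 and SPNCRNA.1490 is itself thinly read. The sequences from the commonest 5' end to the commonest 3' end of the reads of these 10 genes are given. These ends were the ones most often seen, though other reads began or ended elsewhere. They were read from the RefSeq assembly ASM294v3 and are written 5' to 3' on the strand of the RNA. Capitals mark, on this strand only, the letters TGATGA within the first 25 bases together with CTGA within the last 12, or ACA followed by 2 to 4 bases at the end.
SPNCRNA.1511 (II:2416519-2416692, minus strand): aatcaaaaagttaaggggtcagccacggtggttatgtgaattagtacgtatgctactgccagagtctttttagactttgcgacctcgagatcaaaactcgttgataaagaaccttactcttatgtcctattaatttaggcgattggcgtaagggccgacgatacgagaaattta
SPNCRNA.808 (I:2265683-2265848, minus strand): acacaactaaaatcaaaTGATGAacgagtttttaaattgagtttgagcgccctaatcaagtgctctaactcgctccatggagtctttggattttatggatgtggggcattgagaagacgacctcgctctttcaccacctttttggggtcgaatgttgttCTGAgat
SPNCRNA.1444 (II:1557896-1558051, minus strand): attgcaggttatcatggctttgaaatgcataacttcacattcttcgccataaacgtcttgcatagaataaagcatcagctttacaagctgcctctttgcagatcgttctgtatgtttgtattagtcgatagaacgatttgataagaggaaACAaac
SPNCRNA.491 (III:1360419-1360554, plus strand): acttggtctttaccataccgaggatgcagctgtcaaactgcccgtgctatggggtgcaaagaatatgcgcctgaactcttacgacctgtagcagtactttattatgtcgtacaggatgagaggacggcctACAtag
SPNCRNA.1042 (I:5011277-5011365, minus strand): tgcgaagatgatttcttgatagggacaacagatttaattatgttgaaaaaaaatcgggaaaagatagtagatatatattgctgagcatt
SPNCRNA.1651 (II:3962685-3962835, plus strand): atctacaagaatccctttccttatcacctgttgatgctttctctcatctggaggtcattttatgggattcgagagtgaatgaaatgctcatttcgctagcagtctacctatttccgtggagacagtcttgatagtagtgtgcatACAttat
SPNCRNA.87 (I:3177921-3178029, plus strand): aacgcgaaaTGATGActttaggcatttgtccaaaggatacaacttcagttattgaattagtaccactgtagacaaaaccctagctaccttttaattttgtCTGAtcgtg
SPNCRNA.242 (I:4154410-4154571, plus strand): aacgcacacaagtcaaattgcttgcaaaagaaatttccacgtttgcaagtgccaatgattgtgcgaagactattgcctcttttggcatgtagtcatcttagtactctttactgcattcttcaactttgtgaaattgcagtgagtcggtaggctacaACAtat
SPNCRNA.942 (I:3851012-3851146, plus strand): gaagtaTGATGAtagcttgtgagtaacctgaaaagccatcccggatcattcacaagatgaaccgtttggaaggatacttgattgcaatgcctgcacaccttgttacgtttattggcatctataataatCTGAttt
SPNCRNA.1490 (II:2145693-2145832, minus strand): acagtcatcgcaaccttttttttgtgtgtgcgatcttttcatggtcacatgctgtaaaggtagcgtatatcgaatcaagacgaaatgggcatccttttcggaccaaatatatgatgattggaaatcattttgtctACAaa

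The 10 spans were 89 to 174 nt long (median 145.5), and 8 of them carried one of these letter patterns at their ends. TGATGA and CTGA stood together in SPNCRNA.808, SPNCRNA.87 and SPNCRNA.942. In SPNCRNA.942 the 5' end used was that of 4 of 57 reads, with another 4 beginning 1 nt further in. Its median read was 118 nt long against a span of 135 nt, and 0 nt was the furthest reach past the commonest 3' end. Many of its reads thus began after the TGATGA, which starts at base 7 of the span. The ACA near the end was found in SPNCRNA.1444, SPNCRNA.491, SPNCRNA.1651, SPNCRNA.242 and SPNCRNA.1490. In SPNCRNA.1490 this match rests on a tie: 2 of its 8 reads ended at the base used and 2 ended 1 nt before it, where only 1 base would follow the ACA and the pattern would not match. SPNCRNA.1042 had CTGA near its end without TGATGA, and SPNCRNA.1511 had none of the patterns. The same search over the read spans of 52 snoRNA genes with at least 10 reads matched 31 (59.6%), with both TGATGA and CTGA in 17 and the ACA in 14. Of 37 protein-coding genes with at least 10 reads 1 matched (2.70%). Over the annotated spans of all 7131 lncRNA genes 379 matched (5.31%), and of all 25142776 windows of 145 nt in chromosomes I to III, both strands, 5.06% did. In those windows the ACA alone made up 5.03%, while TGATGA with CTGA stood in 0.0327% of windows. The spans of all lncRNA genes were searched at their annotated ends, and the other gene sets at the ends of reads. In the 10 genes the commonest 3' end lay 123 to 1490 nt before the annotated end, so these shares are not like for like. A match of letters is a description and no assignment to a class of RNA, and no match says only that these letters are not in these windows. The 10 genes were picked for their read number after a first look at these data, and the patterns were searched afterwards.

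The most read gene was SPNCRNA.1511 (II:2416379-2416742, minus strand), with 134 reads in the earlier and 121 in the later movies, together 255 or 21.5% of all lncRNA reads (19.2 to 23.9). On the other strand lies ape2, which encodes an aminopeptidase and covers 163 of its 364 nt. Of its reads 253 touched ape2 antisense, which here means with at least 1 nt. Their commonest 3' end lay 140 nt before the annotated end, so most of them met ape2 with their 3' part only. The reads formed 76 distinct alignments, since they began at several places: 51 at the commonest 5' end, 50 at 17 nt further in and 34 at 52 nt further in. At the other end 228 of 255 (89.4%) stopped within 1 nt of the same base.

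Both other antisense genes of the 10 hardly met the coding gene with their reads. SPNCRNA.1042 (I:5009787-5011504, minus strand) had 47 and 63 reads in the earlier and later movies, in only 14 distinct alignments. Its annotation spans 1718 nt, of which 1020 nt lie over pxr1, a PINX1 family gene of ribosome biogenesis, yet 0 of its 110 reads reached pxr1. Of these reads 106 stopped at most 1 nt from the same base, which closes a span of 89 nt. SPNCRNA.1651 (II:3962699-3963115, plus strand) had 41 and 66 reads in the earlier and later movies and 44 distinct alignments. It shares 256 of its 417 nt with sdh8 on the other strand, and 3 of 107 reads touched that gene.

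**Figure D1:**
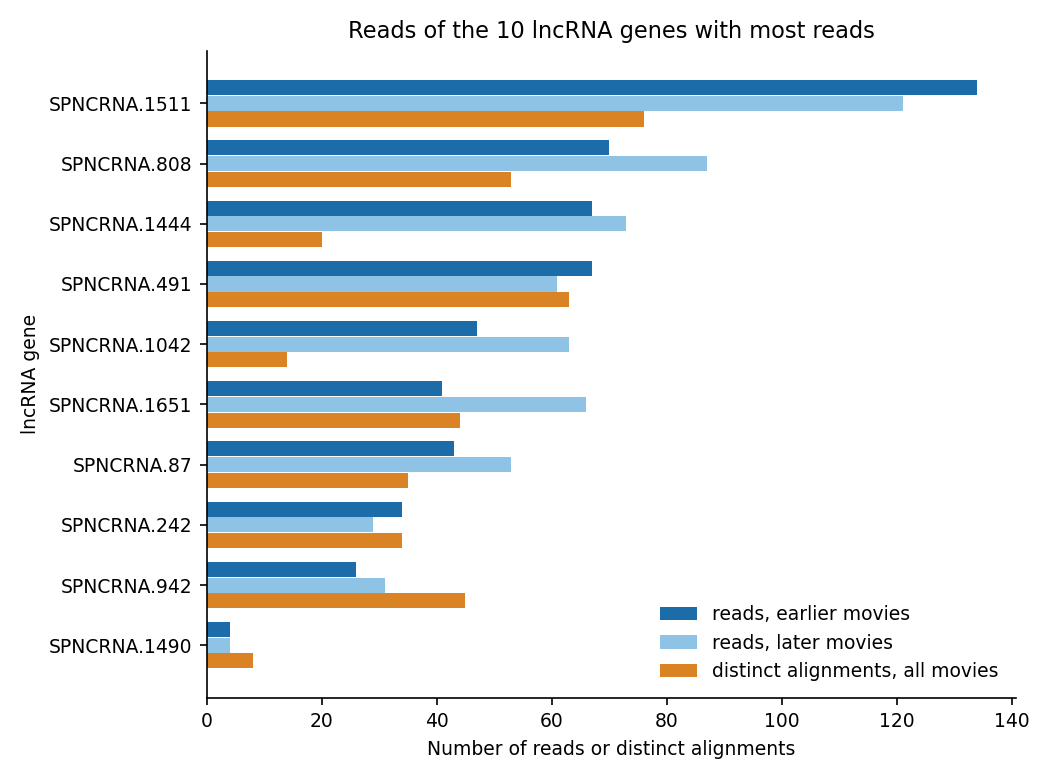
Reads of the earlier movies, reads of the later movies and distinct alignments of all movies (x axis, counts) for each of the 10 lncRNA genes with most reads (y axis). SPNCRNA.1511 stands highest with 134 and 121 reads, and every gene had reads on both dates.

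Another 5 of the 10 genes overlap no coding gene and lie within 500 nt of one. SPNCRNA.808 (I:2265549-2265838, minus strand) had 70 and 87 reads in the earlier and later movies and 53 distinct alignments. It lies 148 nt downstream of rpc2, on the same strand, which encodes a subunit of RNA polymerase III, and 144 nt from the end of mug133. SPNCRNA.1444 (II:1557726-1558047, minus strand) had 67 and 73 reads in 20 distinct alignments and lies 131 nt downstream of rpl26, a gene of the large ribosomal subunit that had 4 reads. SPNCRNA.942 (I:3851024-3851310, plus strand) had 26 and 31 reads and the highest share of distinct alignments among genes with at least 10 reads, 45 of 57 (78.9%). It starts 283 nt from the start of ppc89, on the opposite strand. SPNCRNA.1490 (II:2145545-2145829, minus strand), between tam9 and rrb1, had 4 reads on each date, all 8 distinct.

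SPNCRNA.491 (III:1360323-1360746, plus strand) had 67 and 61 reads in the earlier and later movies. All 128 also lie in SPNCRNA.1189, a gene of 2073 nt on the same strand that ends inside SPNCRNA.491, and they were given to the shorter gene by the tie rule, so the count belongs to the stretch both share. Its nearest coding gene is ctp1, whose product starts the resection of DNA breaks, 90 nt away and divergent. The remaining 2 of the 10 genes lie further than 500 nt from any coding gene. SPNCRNA.87 (I:3177931-3178309, plus strand) had 43 and 53 reads and lies 669 nt from ssu72, a phosphatase of the RNA polymerase II tail. SPNCRNA.242 (I:4154360-4154694, plus strand) had 34 and 29 reads and lies 765 nt before dap1, a regulator of cytochrome P450 enzymes.

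Most reads of these genes filled only part of the annotated gene. The commonest 3' end lay 123 to 1490 nt before the annotated end, with the shortest distance in SPNCRNA.242 and the longest in SPNCRNA.1042. The genes are annotated with 285 to 1718 nt (median 349.5), against 200 to 7193 nt (median 623) over all lncRNA genes. The commonest 5' end fell 3 to 14 nt before the annotated start in 6 of the 10 genes and 50 to 139 nt inside the annotation in the other 4. Single reads went further: the longest reach from the annotated start was 362 of 364 nt in SPNCRNA.1511 and 277 of 285 nt in SPNCRNA.1490, against 252 of 1718 nt in SPNCRNA.1042.

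**Figure D2:**
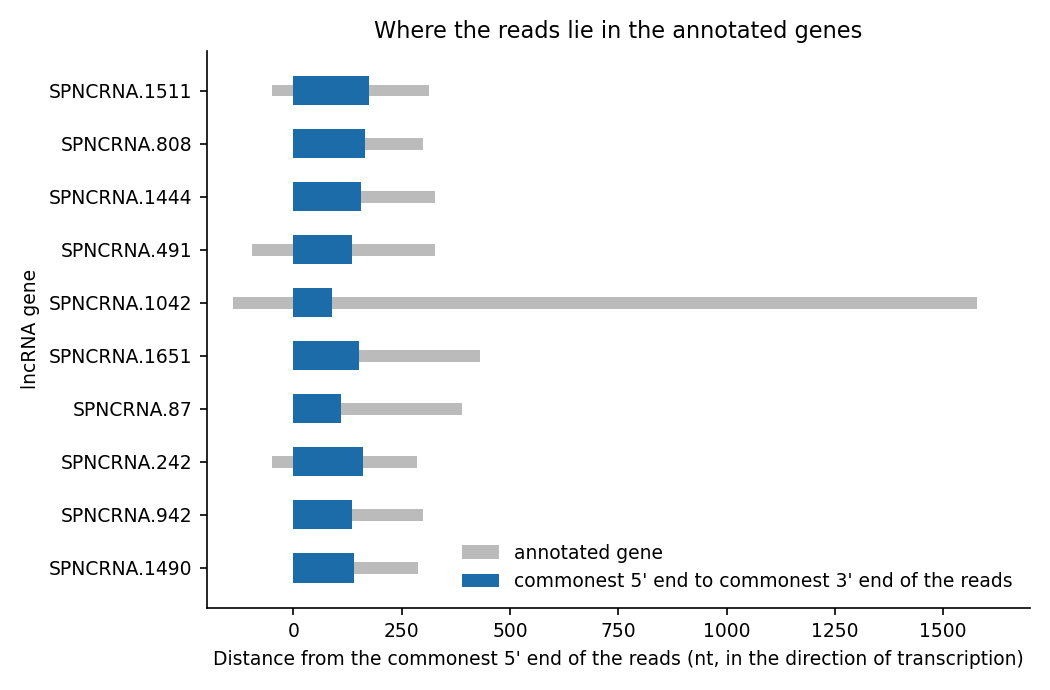
Annotated gene (grey) and stretch between the commonest 5' and 3' ends of the reads (blue) for the 10 lncRNA genes with most reads, as distance in nt from the commonest 5' end in the direction of transcription. Every blue stretch ends before the annotated end, by 123 nt in SPNCRNA.242 and by 1490 nt in SPNCRNA.1042.

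The 3' ends were sharp. Finished RNA in the sample cannot be told apart from nascent RNA, so an end may belong to either. In the 9 lncRNA genes with at least 10 reads, 961 of 1113 reads (86.3%) stopped at most 1 nt from the gene's commonest 3' end, with a median of 89.4% over genes and a range of 63.1% in SPNCRNA.808 to 96.4% in SPNCRNA.1444. This was close to the 52 snoRNA genes, with a median of 89.5% and 85.8% of 10948 reads. It was far above the 37 protein-coding genes, with a median of 14.3% and 18.04% of 593 reads. With identical alignments counted once the shares were 74.2% in lncRNA genes (69.6 to 78.3), 66.1% in snoRNA genes (64.2 to 68.0) and 14.8% in protein-coding genes (12.1 to 18.1). The earlier and later movies had the same commonest 3' end in 8 of these 9 genes, and the ends differed by 1 nt in SPNCRNA.1651.

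Few reads went on beyond the sharp end. At least 10 nt past it ran 28 of 1113 lncRNA reads (2.52%), 2.05% of snoRNA reads and 29.8% of protein-coding reads. SPNCRNA.808 had 17 of the 28, up to 87 nt past, and a further 16.6% of its reads ended 2 to 9 nt past. SPNCRNA.87 had 19.8% of its reads 2 to 9 nt past and 0 at 10 nt or more, while SPNCRNA.942 had 0 past its commonest end by over 1 nt. In SPNCRNA.1490, with 8 reads, 4 stopped at most 1 nt from the commonest 3' end and 3 at least 10 nt past it. The 5' ends were looser in lncRNA genes, with a median of 49.5% of reads within 1 nt of the commonest 5' end, against 76.8% in snoRNA genes and 68.2% in protein-coding genes. That share was 17.5% in SPNCRNA.942 and 20% in SPNCRNA.1511, and 85.7% in SPNCRNA.1444.

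**Figure D3:**
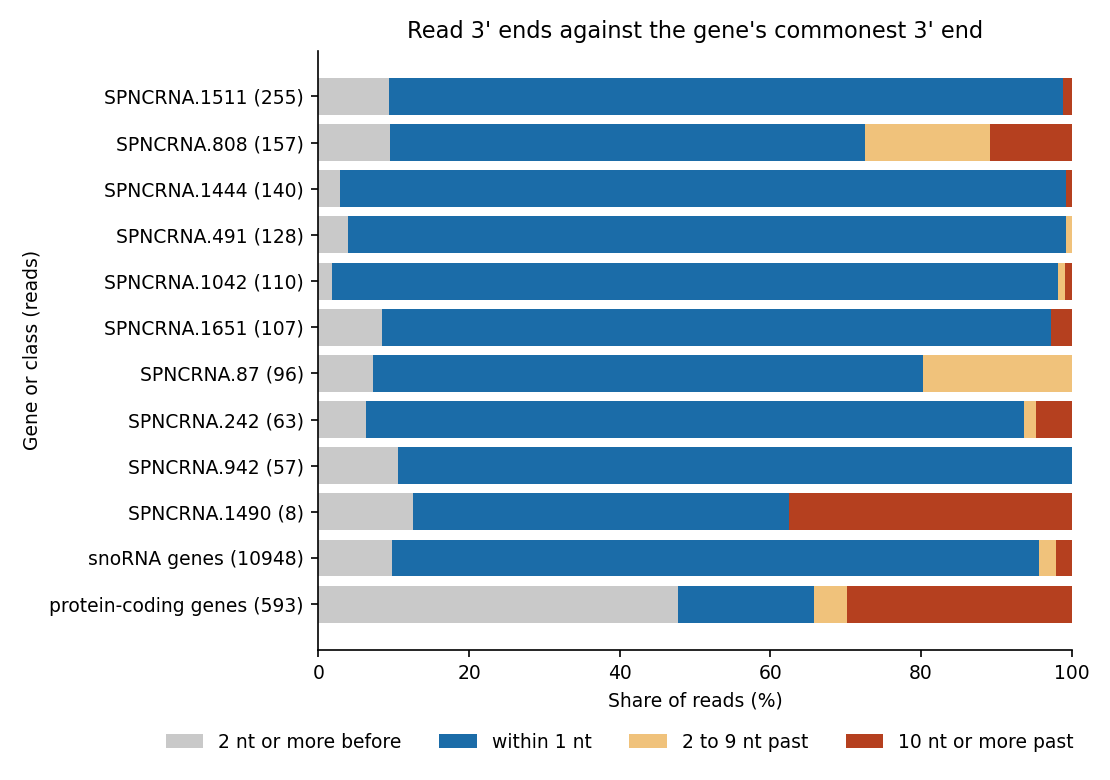
Share of reads (x axis, %) by the distance of their 3' end from the gene's commonest 3' end, for each of the 10 lncRNA genes and pooled over 52 snoRNA and 37 protein-coding genes with at least 10 reads (number of reads in brackets). The blue part, within 1 nt, is 86.3% over the 9 deeper lncRNA genes, 85.8% for snoRNA genes and 18.04% for protein-coding genes.

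Many reads of the 10 genes repeated the same alignment. The reads of the 10 genes comprised 392 distinct alignments (35.0%), against 21.7% for snoRNA genes and 97.5% for protein-coding genes. The 66 reads of the other 60 genes were all distinct, as they had to be in the 55 genes with 1 read. The share depends on the number of reads per gene, and protein-coding genes had 2628 reads over 1194 genes. Over all lncRNA genes 458 of 1187 alignments (38.6%) were distinct, next to 38.7% for the whole sample. PCR copies and separate molecules with the same ends cannot be told apart here.

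Upstream of the 10 spans, 200 nt were searched for a pair of promoter patterns. This search was not planned beforehand and came after the 10 genes had been picked for their read number. The letters TGTGACTG, or CAGTCACA on the other strand, make up the HomolD box that stands in place of a TATA box in most fission yeast ribosomal protein genes. They stood, in the TGTGACTG direction, upstream of SPNCRNA.808, SPNCRNA.87 and SPNCRNA.242, beginning 57, 62 and 67 nt before the commonest 5' end. These 3 windows are shown because the match sits at a like distance in each. They come from the RefSeq assembly ASM294v3, with TGTGACTG and TATAAA in capitals.
Upstream of SPNCRNA.808 (I:2265849-2265915, minus strand): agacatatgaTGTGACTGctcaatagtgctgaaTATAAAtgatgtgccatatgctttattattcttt
Upstream of SPNCRNA.87 (I:3177849-3177918, plus strand): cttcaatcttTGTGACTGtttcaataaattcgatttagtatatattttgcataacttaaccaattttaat
Upstream of SPNCRNA.242 (I:4154333-4154402, plus strand): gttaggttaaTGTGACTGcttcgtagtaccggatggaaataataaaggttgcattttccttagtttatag

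The HomolD letters were in 3 of the 10 windows, against 43 of 7131 windows of the same length before annotated lncRNA genes (0.603%), 2.58% before protein-coding genes, 63.5% of 137 ribosomal protein genes and 17.3% of the 52 snoRNA genes. TATAAA, searched on the strand of the RNA alone, was in 7 of 10 windows, against 20.1% for all lncRNA genes, 22.8% for protein-coding genes and 36.5% for the snoRNA genes. It lay 29 to 34 nt before the commonest 5' end in SPNCRNA.1511, SPNCRNA.808 and SPNCRNA.1651 and 51 to 152 nt before it in the other 4. Windows for the 10 genes and the snoRNA genes start at the commonest 5' end of the reads, and those of the other sets at the annotated start, so the sets differ in how well the start is known.

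Aligned lengths set the 10 genes apart from the other 60. The median was 150 nt in the 10 genes (quartiles 111 and 157, longest 312) and 222 nt in the other 60 (169.25 and 287.5, longest 327). Over all lncRNA reads it was 151 nt, against 233 nt for protein-coding genes (180 and 283) and 139 nt for snoRNA genes (87 and 193). The lncRNA genes with few reads lay nearer to coding genes in read length than the 10 with many. No lncRNA read was longer than 327 nt and no read of the sample longer than 356 nt, so annotated lncRNA genes, with a median of 623 nt, were seldom read end to end.

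**Figure D4:**
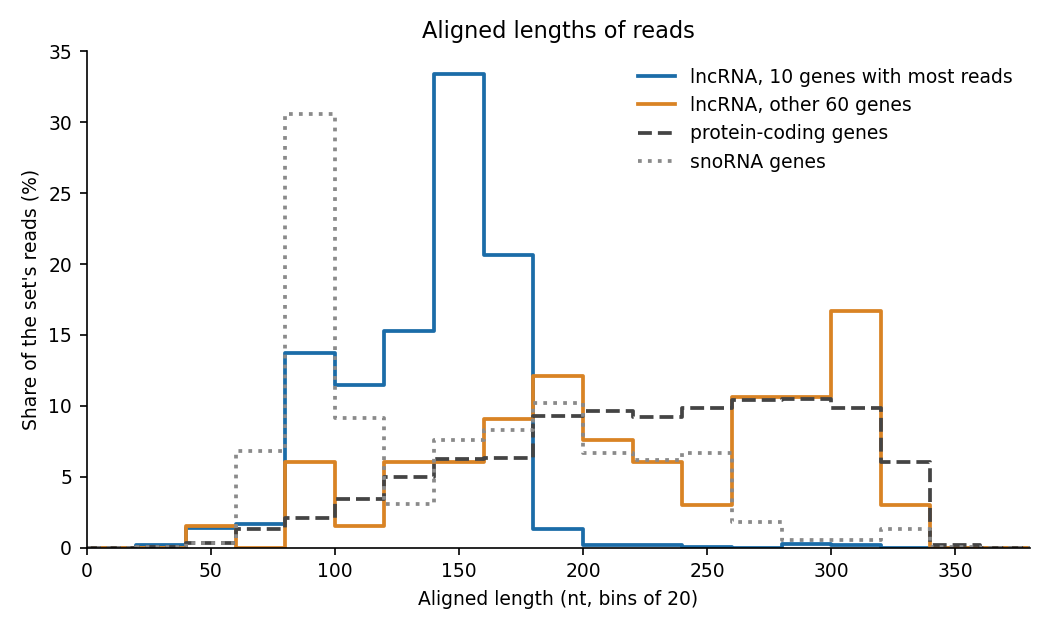
Share of each set's reads (y axis, %) by aligned length in bins of 20 nt (x axis) for the 10 lncRNA genes with most reads, the other 60 lncRNA genes, protein-coding genes and snoRNA genes. The 10 genes peak at 140 to 160 nt, while the other 60 spread up to 327 nt as protein-coding reads do.

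The 60 sparsely read genes had their reads near the annotated start. The read's 5' end lay a median of 50 nt after it (quartiles 3.75 and 112), with 16 of 66 reads within 10 nt (24.2%, 15.5 to 35.8) and 47 within 100 nt (71.2%, 59.4 to 80.7). Protein-coding reads began closer to the annotation, with a median of 0 nt, 69.9% within 10 nt and 90.9% within 100 nt. The 3' ends of the sparse lncRNA reads lay a median of 291.5 nt after the annotated start (quartiles 232 and 368), anywhere between 62 and 2070 nt. The genes themselves span 230 to 3429 nt (median 985.5), and 4 of the 66 reads ended past the annotated end.

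**Figure D5:**
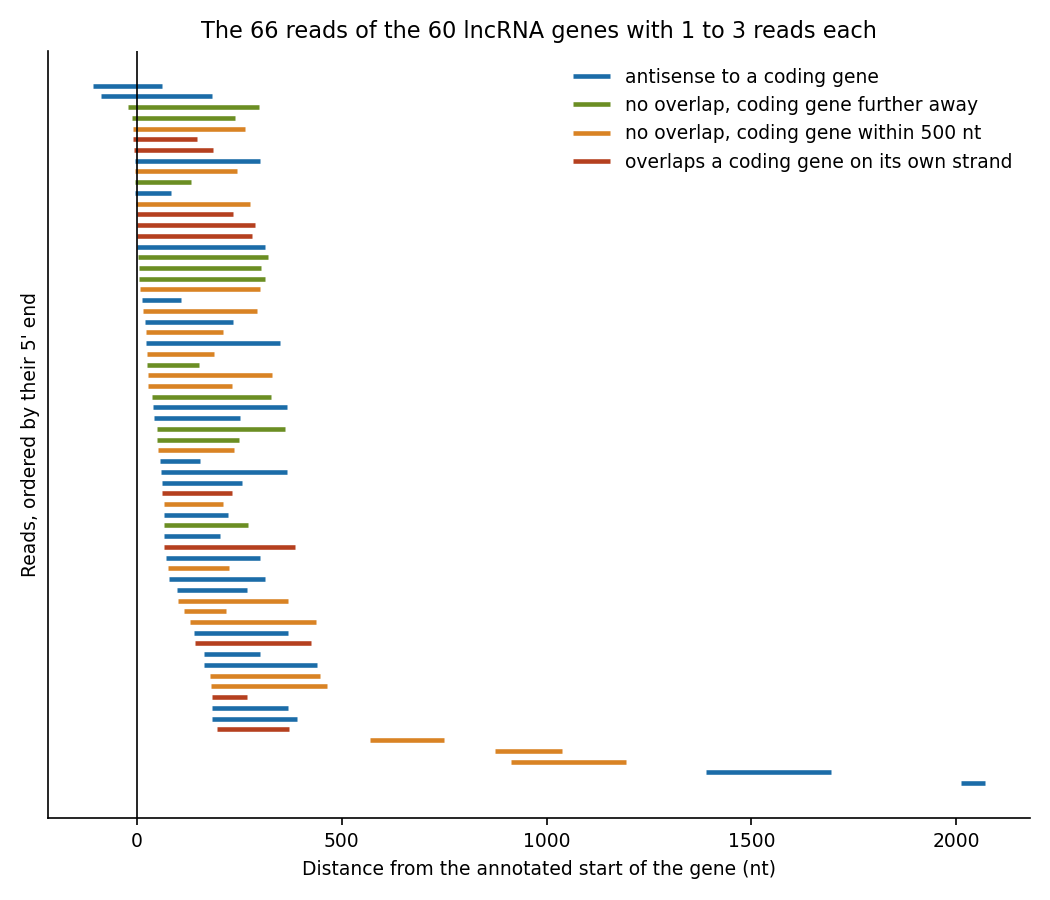
The 66 reads of the 60 lncRNA genes with 1 to 3 reads, each a line from its 5' end to its 3' end, as distance in nt from the annotated start (x axis), ordered by 5' end (y axis) and coloured by the place of the gene. Of the reads 47 begin within 100 nt of the annotated start, and 5 begin more than 500 nt inside the gene.

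Among the known fission yeast lncRNAs looked for by name, prt had most reads. prt, annotated as nc-pho1 (SPNCRNA.1712, II:4446359-4448918, plus strand), runs into pho1, the gene of the secreted acid phosphatase, over 1413 nt of its 2560 nt. Its 3 reads, all from the earlier movies, began at 0, 0 and 1 nt from the annotated start and ended 236, 289 and 281 nt after it. These ends lie 912, 859 and 867 nt before the start of pho1, which had 0 reads. prt2 (II:4442542-4445970, plus strand) had 1 read of 192 nt, which began 6 nt before the annotated start, and the phosphate transporter gene pho84, which it overlaps, had 3 reads. ter1 (I:3084610-3086022, minus strand) had 1 read, from 29 to 232 nt, far from its annotated intron of 56 nt that starts 1207 nt into the gene.

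The other known names had 0 reads, which allows each a share of up to 0.0186% of the alignments. These are sme2, both annotated forms of mamRNA and omt3, which belong to meiosis, rse1, a repressor of the mating regulator ste11, nc-tgp1, which lies before a phosphate-regulated gene, rrk1, the RNA of nuclear RNase P, tos1, tos2 and adh1AS. The name tos3 matched no entry of the annotation. In all, 3 of 13 entries found had reads, 5 reads together.

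The other genes with more than 1 read had 2 each. SPNCRNA.1095 had 1 read on each date, and its nearest coding gene is 3859 nt away. SPNCRNA.1097 had 2 reads in the earlier and 0 in the later movies. SPNCRNA.1236 had 1 on each date and overlaps eaf1, a gene of transcription elongation, by 111 nt antisense, though neither of its reads reached eaf1. SPNCRNA.1532 had 1 on each date and starts 67 nt from the start of tkt1, the transketolase gene, on the opposite strand.

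The place of the genes with reads is set beside that of all annotated lncRNA genes, with no test of the difference. A gene counted as antisense where at least 1 nt of it lay over a protein-coding gene on the other strand, same strand where it overlapped one on its own strand only, near where the closest one lay within 500 nt, and far otherwise. Antisense were 27 of 70 genes with reads (38.6%), against 5443 of 7131 annotated lncRNA genes (76.3%). Near were 24 (34.3% against 15.2%), far 11 (15.7% against 6.97%) and same strand 8 (11.4% against 1.47%). In reads, antisense genes held 497 of 1187 (41.9%, 39.1 to 44.7), near genes 510 (43.0%), far genes 170 (14.3%) and same-strand genes 10 (0.842%). These shares of reads depend on a few genes. With at least 50% of the gene required to lie over the coding gene, antisense genes held 19.9% of reads, since SPNCRNA.1511 with its 255 reads lies over ape2 by 44.8% of its length. With ties given to the longer gene, the 128 reads of SPNCRNA.491 counted for SPNCRNA.1189, which is antisense, and antisense genes held 625 of 1192 reads (52.4%) and near genes 382 (32.0%). Without the 10 genes, 24 of 60 genes were antisense (40%), with 25 of 66 reads. A share of the annotated set was not matched for gene length or for the number of reads it could draw.

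A smaller share of reads than of genes met a coding gene antisense. Only 274 of 1187 reads (23.1%, 20.8 to 25.6) had a base over a protein-coding gene on the other strand, and SPNCRNA.1511 supplied 253 of them. Most of these 253 met ape2 with their 3' part only. In the 60 sparse genes it was 18 of 66 reads (27.3%, 18.003 to 39.04). SPNCRNA.647, with 1 read, lies in full over mre11, the nuclease of DNA break repair, and its read is antisense to that gene. It was chosen as an example after its values were seen. SPNCRNA.1004 (I:4604711-4606362) overlaps SPAC1093.07 by 1264 nt, and its read, which started 1389 nt into the gene, touched that gene too. Of the 27 antisense genes 4 (14.8%) had a partner with reads of its own on the sense strand, against 27.1% of 5443 annotated antisense genes.

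The sparse antisense genes covered coding genes of many kinds, each with 1 read. SPNCRNA.1066 shares 765 nt with nas2, a chaperone of proteasome assembly, and SPNCRNA.1112 shares 748 nt with rpc37, a subunit of RNA polymerase III. SPNCRNA.1127 lies over kpa1 by 773 nt, SPNCRNA.1149 over mgl1 and a neighbour by 730 nt, and SPNCRNA.1292 over SPCC70.08C by 863 nt. The reads of the first 4 of these touched the coding gene, and that of SPNCRNA.1292 did not. Likewise with 1 read each, and listed so that every member is accounted for, SPNCRNA.1416, SPNCRNA.1419, SPNCRNA.1428, SPNCRNA.1446, SPNCRNA.1461, SPNCRNA.1580, SPNCRNA.1615, SPNCRNA.1627, SPNCRNA.1682, SPNCRNA.773, SPNCRNA.788 and SPNCRNA.903 also had a read over the gene opposite. Their partners include top3, a DNA topoisomerase, pds5, a regulator of cohesin, cyc2 and pfd1. The reads of SPNCRNA.1597, SPNCRNA.625, SPNCRNA.670 and SPNCRNA.752 stayed clear of lys9, rps2601, cct2 and ubx3, the genes on the other strand. In 3 of these last 4 pairs the coding gene had sense reads of its own: 3 in lys9, 1 in rps2601 and 3 in cct2.

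Sparse genes that overlap a coding gene on their own strand only were prt, prt2, SPNCRNA.112, SPNCRNA.1220, SPNCRNA.1432, prl53, SPNCRNA.792 and SPNCRNA.910. SPNCRNA.112, of 461 nt, lies wholly within rhs1, which had 3 reads of its own, so that its 1 read is a tie that went to the shorter gene. SPNCRNA.1220 shares 550 of its 612 nt with SPCC191.05C, and its 1 read, from 62 to 233 nt, lies within the overlap and is such a tie too. SPNCRNA.1432 shares 79 nt with hhf2, a histone H4 gene with 1 read. SPNCRNA.910 shares 62 nt with nde1, also with 1 read. Among the near genes, SPNCRNA.1057 starts 128 nt from the start of etr1, on the opposite strand, and SPNCRNA.1409 starts 32 nt from that of mas5, a DNAJ family chaperone. The other near genes with 1 read were SPNCRNA.1293, SPNCRNA.142, SPNCRNA.1482, SPNCRNA.1533, SPNCRNA.1534, nam3, SPNCRNA.201, ter1, SPNCRNA.3707, SPNCRNA.427, SPNCRNA.437, prl58, SPNCRNA.784, SPNCRNA.810, prl59 and SPNCRNA.968. The far genes with 1 read were SPNCRNA.1059, 632 nt before pyp2, a tyrosine phosphatase gene, and SPNCRNA.1605, SPNCRNA.1625, SPNCRNA.1674, prl35, SPNCRNA.720 and SPNCRNA.945. Of the 25 near and far genes with 1 read, the nearest coding gene had reads in 4, against 21.9% of 1583 annotated near and far genes.

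Of the genes with reads 35 overlap no coding gene, at a median distance of 316 nt from the nearest (0 to 3859 nt). The nearest coding gene was divergent for 16 (45.7%), pointing away from a start that faces the lncRNA start, against 37.7% of 1583 such annotated genes. It lay downstream on the same strand for 11 (31.4% against 32.8%), upstream on the same strand for 3 (8.57% against 15.9%) and was convergent for 5 (14.3% against 13.7%). These shares rest on few genes, and their differences from the annotated set were not tested. A coding gene next to or over the lncRNA gene had reads for 5 of the 10 genes (50%) and for 28 of the other 60 (46.7%), against 54.1% of all annotated lncRNA genes. Ribosomal protein genes were the nearest or overlapped coding genes of 3 of 70 (4.29%, against 2.96% of annotated lncRNA genes), histone genes of 1 (against 0.463%), glycolysis genes of 1 (against 0.491%), cell wall genes of 1 (against 0.659%) and translation factor genes of 0 (against 1.21%). Counts of 0 or 1 among 70 genes are too few to set apart from those shares. The ribosomal protein genes here were found by symbol or product, so they include tam9 beside SPNCRNA.1490, a gene of a mitochondrial ribosomal protein.

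The annotation calls 15 of the 70 genes (21.4%) a possible alternative UTR, against 197 of 7131 (2.76%). All 15 are among the 60 sparse genes. SPNCRNA.1112, SPNCRNA.1127 and SPNCRNA.1220 are examples, each with 1 read and a coding gene on the same strand. The read of SPNCRNA.1220 lies equally in that coding gene. Over all lncRNA reads 5 also overlapped a same-strand coding gene. A further 3 genes with reads (4.29%, against 0.491% of annotated lncRNA genes) are annotated as poly(A)-bearing and 1 (1.43% against 0.112%) as associated with a long terminal repeat.

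Gaps, which in spliced molecules take the place of introns, were all but missing. Of 1187 lncRNA reads 1 had a gap (0.0842%, 0.0149 to 0.476), against 554 of 2628 protein-coding reads (21.1%, 19.6 to 22.7). The 10 genes had 0 gaps in 1121 reads, with an upper bound of 0.342%. Of all annotated lncRNA genes only 4 have an intron, and ter1 is the single one of them with a read. The 1 gap lay in SPNCRNA.792 (I:2093221-2093941, minus strand), was 99 nt long and matched no annotated intron. Its flanking blocks were 150 nt upstream and 34 nt downstream. The letters of the gap are given because they are the only sign of a removed intron in the lncRNA reads, from the RefSeq assembly ASM294v3 on the strand of the RNA, with the first and last 2 bases in capitals.
Gap in SPNCRNA.792 (I:2093550-2093648, minus strand): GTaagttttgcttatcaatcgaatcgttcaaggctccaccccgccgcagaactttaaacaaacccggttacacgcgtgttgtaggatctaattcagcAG

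The gap starts with GT and ends with AG and was seen in 1 read. All 329 distinct gaps of the sample that matched an annotated intron have these ends too. They were picked by that match, and the ends of gaps without a match were not counted, so they are no measure for this gap. SPNCRNA.792 is one of the genes annotated as a possible alternative UTR, overlaps SPAC3C7.13C by 7 nt on the same strand, and was singled out for this gap after the reads were seen.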

How the data were processed

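Per the labels' protocols, nascent RNA of 1 fission yeast culture was ligated at its 3' end to an adaptor, copied into cDNA with a SMARTer kit and read by Pacific Biosciences sequencing. The deposited file holds genome alignments, 1 line per alignment with start, end, strand and blocks, and a score column that is constant and stayed unused. Named in the submitters' processing notes are cutadapt 1.8 and sacCer3, a budding yeast build that cannot be that of these alignments. The aligner is not given in the sources used here. Assembly ASM294v3 was compared with the alignments first: ends stayed within chromosomes I to III, 329 of 355 distinct gaps matched an annotated intron, each of these with GT-AG ends, and 0 matched one of the other strand.

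Each of 16126 alignments (16122 read names) counted as a read. Reads went to the same-strand gene with most aligned bases, and ties to the shorter gene. Of the lncRNA reads 130 were ties, 128 with another lncRNA gene and 2 with a coding gene. Reads over a snoRNA, tRNA or snRNA gene stayed outside. Protein-coding genes are those of chromosomes I to III. Shares have Wilson intervals at 95%, a count of 0 an upper limit of 3 counts. Coordinates count from 1. Python 3.11.15, numpy 2.4.6, scipy 1.17.1 and pandas 2.3.3 were used. The assignment code was run on simulated reads, and those that overlapped a single gene on their strand had to return to it. With strands swapped no read was allowed to return to its gene. This checks the code and does not measure how rightly reads over several genes were assigned. Members and lists were chosen with earlier results of these data known. Genes named are the 25 with most reads, any with a gap in at least 2 reads (0 such genes) and the known list, with their coding neighbours. From the sixteenth on, the 25 are tied at 1 read and ordered by name, so the other genes with reads are named as well, after their values were seen. The alternatives recounted distinct alignments, each movie date, other assignment rules and other definitions of place.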

Additional observations from a re-analysis of the deposited data

Results flagged for a closer look

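A signal stood outside the lncRNA reads as defined. SPNCRNA.659 (snoZ), annotated as the primary transcript of the snoRNAs snoZ3, snoZ4, snoZ5, snoZ7 and snoZ8, is an lncRNA gene that had 255 reads, in 42 distinct alignments, whose larger overlap was with it. The rule gave all 255 to the snoRNA genes they cover, since each lay over one: snoZ7 with 85, snoZ8 with 78, snoZ5 with 47 and snoZ3 with 45. The median read had 1 base outside its snoRNA (1 to 195) and was 88 nt long, and 1 read covered more than 1 snoRNA. The lower limit of 1 base follows from the rule, since a read wholly inside a snoRNA gene is a tie that goes to the shorter gene. Most of these reads thus hardly left the snoRNA. This was the only lncRNA gene that lost reads of larger overlap to the rule on small RNA genes. Reads that tied between an lncRNA gene and a shorter small RNA gene are not in this count.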

How the results depend on the processing

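No paired analysis was possible because fission yeast has 1 sample and no test was run. Of 77 recomputed values over 17 alternative settings, 53 stayed within the main value's counting interval or, for counts, within 1.5 times it, and 24 moved. Counting identical alignments once left 458 lncRNA reads, 34.7% of them in antisense genes, 85.6% in the 10 genes, a median length of 141.5 nt and 74.2% of alignments within 1 nt of the commonest 3' end. The earlier movies alone had 564 lncRNA reads in 38 genes and 0% with a gap, and the later movies 623 reads in 45 genes. Leaving out ties gave a share of 6.55% of the sample and 47.0% in antisense genes, and giving them to the longer gene put 52.4% there. Keeping reads over small RNA genes where the lncRNA gene had the larger overlap gave 8.94%, 52.1% antisense and a median of 136 nt. The antisense share was 19.9% where most of the gene had to lie over a coding gene, and 23.1% by the place of the read itself. With at least 3 reads 11 genes counted, with at least 10 reads 9. Without SPNCRNA.1511 the median length was 146 nt. Without the 10 genes with most reads it was 222 nt, with 37.9% of reads in antisense genes and 1.52% with a gap. The cause of these shifts was not tested. Keeping small RNA reads, giving ties to the longer gene, leaving out the 10 genes and recounting 3' ends were chosen after seeing the data.

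Depth limits the 60 sparse genes, most with 1 read: which of the 7061 lncRNA genes without reads were transcribed cannot be read from this sample.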
